A study of Homo sapiens with 8 samples.

Results

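CCDC47 and the proteins it works with form the multipass translocon, the machinery that inserts membrane proteins with many membrane-spanning segments into the endoplasmic reticulum. Transcripts of 9 genes were followed: CCDC47, TMCO1, NCLN, NOMO1 and TMEM147 of the multipass translocon, SEC61A1 and SEC61A2 for the central channel, and its partners SEC62 and SEC63. The members were all probe sets annotated to 1 of these gene symbols, 25 of the 54613 non-control probe sets on the array, together with 2 probe sets that NOMO1, NOMO2 and NOMO3 share. CCDC47 and SEC62 were chosen by their small minus large differences on these same arrays, which for 1 probe set of each were among the largest measured, and the other genes were added as their partners. The small minus large values of all 9 genes are therefore given as a description. How many of them passed the threshold in the fit over all probe sets is stated only beside the share of all probe sets that did, and is no test of the members. The cells were of the H1 line, human embryonic stem cells long kept in culture, and were grown over irradiated mouse embryonic fibroblasts and sorted by forward and side scatter into a small and a large fraction. Each fraction was collected in 4 sorts described as biological repeats, and each sort was measured on its own Affymetrix U133 Plus 2.0 array. The labels give no difference between the groups other than the sort gate. All results rest on 1 line, and no unsorted cells were analysed here.

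In the multipass translocon, 3 small assemblies sit around the SEC61 channel. CCDC47 and Asterix (WDR83OS) form the PAT complex, which shields membrane segments as they leave the ribosome. TMCO1 and RAB5IF form the GEL complex, whose TMCO1 belongs to a family of membrane insertases. Nicalin (NCLN), a NOMO protein and TMEM147 form the BOS complex. SEC61A1 is the pore-forming alpha subunit of the channel through which most secreted and membrane proteins enter the endoplasmic reticulum, and SEC61A2 is its paralog. SEC62 and SEC63 join the channel for substrates that need help to enter it, and SEC63 recruits the lumenal chaperone HSPA5.

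The promoters of CCDC47, SEC61A1, SEC63 and SEC62 are shown because the results turn on these genes, and NOMO1 has no entry. The sequences are RefSeq's for GRCh38.p14, from 250 bases before to 10 bases after the gene's start, 5′ to 3′. Of 9 genes, 8 had an entry. Capitals mark TGACGTG, the core bound by the stress factors ATF6 and XBP1, or TGACGTCA, the cyclic AMP response element, on either strand.
CCDC47, chr17:63773588-63773847, minus strand: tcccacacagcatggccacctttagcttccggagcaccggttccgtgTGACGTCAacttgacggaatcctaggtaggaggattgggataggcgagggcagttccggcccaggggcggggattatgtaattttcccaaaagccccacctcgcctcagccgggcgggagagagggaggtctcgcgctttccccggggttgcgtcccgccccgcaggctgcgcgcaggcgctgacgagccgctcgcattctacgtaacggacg
SEC61A1, chr3:128052187-128052446, plus strand: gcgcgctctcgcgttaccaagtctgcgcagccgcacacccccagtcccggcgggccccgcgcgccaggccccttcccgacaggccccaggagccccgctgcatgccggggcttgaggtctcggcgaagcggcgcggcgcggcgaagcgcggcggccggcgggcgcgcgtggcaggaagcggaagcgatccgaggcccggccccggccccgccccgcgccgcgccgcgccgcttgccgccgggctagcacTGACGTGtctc
SEC63, chr6:107958199-107958458, minus strand: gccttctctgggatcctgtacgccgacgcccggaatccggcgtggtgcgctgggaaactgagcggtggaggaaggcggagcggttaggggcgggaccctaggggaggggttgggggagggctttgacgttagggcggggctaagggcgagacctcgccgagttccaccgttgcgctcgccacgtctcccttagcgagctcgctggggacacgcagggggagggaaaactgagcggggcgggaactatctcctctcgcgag
SEC62, chr3:169966557-169966816, plus strand: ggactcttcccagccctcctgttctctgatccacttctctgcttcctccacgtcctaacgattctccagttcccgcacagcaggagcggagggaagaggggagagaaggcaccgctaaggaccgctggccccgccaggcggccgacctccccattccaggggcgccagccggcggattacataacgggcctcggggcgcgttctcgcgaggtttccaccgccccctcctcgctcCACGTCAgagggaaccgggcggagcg
SEC61A1 has 2 annotated starts, and the window with the motif is shown. TGACGTG began 1 base before the start in SEC61A1 and, on the reverse strand, 16 bases before it in SEC62, and 1.97% of 35116 windows of 300 bases hold it. TGACGTCA stood 203 bases before the start in CCDC47 and 69 in TMEM147, and 1.85% of windows hold it. Of the 8 member genes, 6 held GGGCGG, the GC box, on either strand (45.0% of all windows), and CCDC47 and TMCO1 held CCAAT (34.6%). A gene was counted if any of its windows held the letters, so counts of genes and shares of windows are unlike measures. These matches describe letters and not binding.

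The values below are normalized log2 intensities, and a difference is the mean of the 4 small arrays minus that of the 4 large arrays. Whether groups overlap is also stated for these normalized values. A probe set was tested if its mean over all 8 arrays passed the 40th percentile. Of the 25 member probe sets 21 passed, in 8 genes, and 4 did not. NOMO1 has no probe set of its own. Each array was loaded with the same kind of labelled RNA and normalized to the others, so the levels are relative to total RNA. Less of a transcript per cell and fewer cells that hold it cannot be told apart. Nothing in the labels says that the sorts came from separate cultures, so errors measure the spread between these sorts.

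Overall brightness varied between arrays, with 75th percentiles of 42.0 to 106 deposited units. The mean 3 prime minus 5 prime log2 difference of the GAPDH and ACTB control probe sets, a sign of RNA quality, was 2.91 on large array 1, 1.83 to 1.89 on large arrays 2 to 4 and 1.94 to 2.66 on the small arrays (exact two-sided permutation p = 0.4 for small against large, with 0.0286 the smallest possible). Of 28 markers of cell types fixed for this purpose, 24 were tested. At an adjusted p under 0.05 limma called 0, and at an unadjusted p under 0.05 it called 3, beside 2390 of all 14726 genes. These 3, named after their values were seen, were all higher in small cells by their means: the neural markers PAX6 (1.77 ± 0.52 SE, adjusted p = 0.117) and STMN2 (1.15 ± 0.47 SE, adjusted p = 0.263) and the endoderm marker TTR (1.33 ± 0.51 SE, adjusted p = 0.229). The small and large arrays did not overlap for TTR and overlapped for PAX6 and STMN2. The 7 pluripotency markers summed to 13.73 to 13.89 on small and 13.78 to 13.96 on large arrays. The 5 neural markers summed to 8.90 to 9.24 on small and 8.68 to 8.91 on large arrays, the 6 fibroblast markers tested to 9.98 to 10.90 and 10.37 to 11.39, the 3 endoderm markers tested to 6.81 to 8.28 and 6.12 to 7.59, and the 3 trophoblast markers tested to 7.31 to 7.48 and 7.38 to 7.76. Their part in the results was not tested.

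Most member probe sets were lower in small cells. Of the 21 tested, 18 had a difference below 0, beside 47.6% of all 32768 tested probe sets. Several of the 21 measure the same gene and are not separate observations. Their median was -0.43, beside 0.02 over all tested probe sets, and their range ran from -1.57 to 1.03. In the fit over all probe sets, 3 members were called lower at an adjusted p under 0.05 (background 1.3%) and 1 higher (background 0.198%). These were CCDC47 217814_at and SEC63 201914_s_at and 201916_s_at, which were lower, and SEC62 208942_s_at, which was higher. The 2 shared NOMO probe sets were also called lower. For 7 of the 21 all small arrays lay below all large arrays (background 5.46%), and for 1 they lay above (background 3.89%). Since this comparison chose the members, nothing is read from these counts. They were also not stable, with 1 member called without large array 2, 3 or 4 or without small array 1 or 2, 2 without small array 3 or 4, and 0 (limma, 1 at an unadjusted p under 0.05) on the deposited scaling.

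**Figure D1:**
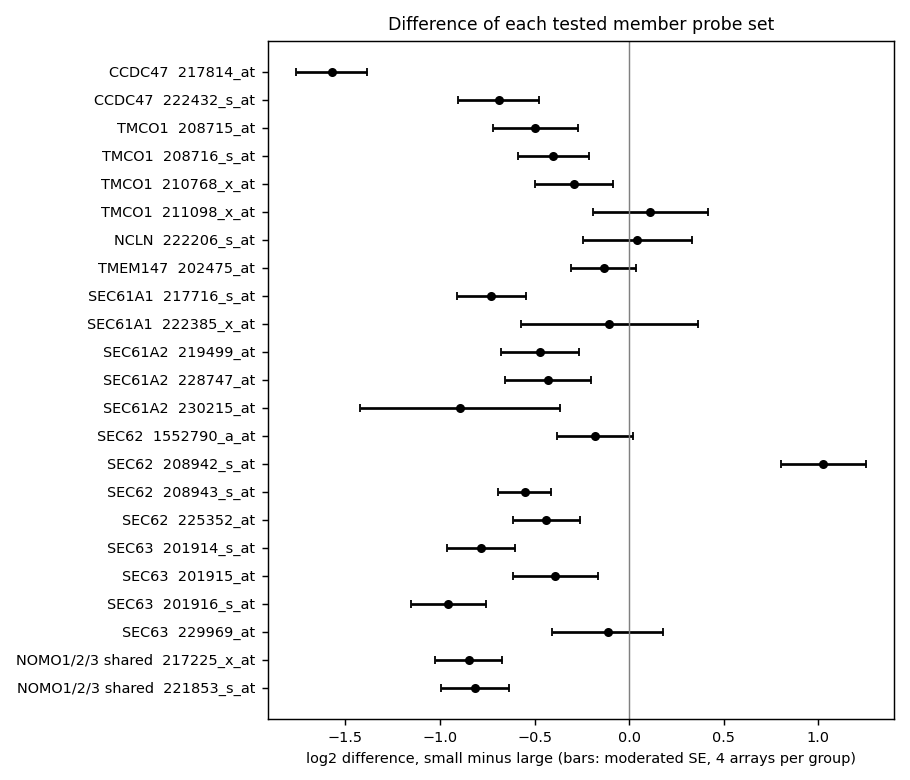
Log2 difference, small minus large, of the 23 tested member probe sets, the shared NOMO probe sets included; bars show the moderated standard error (n = 4 per group). CCDC47 217814_at lies farthest to the left at -1.57, and SEC62 208942_s_at is alone far to the right of 0, at 1.03.

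CCDC47, the coiled-coil protein of the PAT complex, was the member that differed most. Its probe set 217814_at was at 8.65, 9.28, 9.25 and 9.27 on large arrays 1 to 4 and at 7.24, 7.80, 7.43 and 7.70 on small arrays 1 to 4. Every small array lay more than 0.8 below the lowest large array, and large array 1 was the lowest of its group. The means were 9.11 ± 0.31 (SD, n = 4) for the large and 7.54 ± 0.26 (SD, n = 4) for the small arrays, a 2.97-fold lower level in small cells (log2 difference -1.57 ± 0.19 SE). In the deposited intensities this probe set ran from 140 to 996 units. There the groups overlapped, with small array 3 at 298 and large array 1 at 244 units. Of all tested probe sets, 76 had a more negative difference. Without large array 1 the difference was -1.73, and with the 3 prime to 5 prime measure as a covariate it was -1.43.

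The second CCDC47 probe set, 222432_s_at, was at 7.21, 7.12, 7.19 and 7.20 on large arrays 1 to 4 and at 6.49, 6.68, 5.91 and 6.88 on small arrays 1 to 4. The groups again did not overlap, but the difference was -0.69 ± 0.21 SE, and small array 3 was farthest from the large arrays. Within each array, 217814_at minus 222432_s_at was 1.45, 2.16, 2.05 and 2.07 on large arrays 1 to 4 and 0.75, 1.12, 1.52 and 0.81 on small arrays 1 to 4. The first probe set thus differed more than the second, by 0.88 on the log2 scale, and small array 3, the highest of the small arrays on this measure, lay above large array 1, the lowest of the large arrays. The PAT partner Asterix, WDR83OS, had a difference of 0.43 ± 0.22 SE (limma adjusted p = 0.388, n = 4 per group), opposite in sign to CCDC47 and not past the threshold. Its 4 small arrays lay between 7.76 and 7.92 and overlapped the large arrays, which ran from 6.81 to 7.92.

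TMCO1, the insertase-like subunit of the GEL complex, overlapped between the groups on all 4 of its probe sets. The brightest, 208716_s_at, was at 7.96, 8.38, 8.38 and 8.43 on large arrays 1 to 4 and at 7.68, 7.62, 8.30 and 7.96 on small arrays 1 to 4. Small array 3 lay inside the range of the large arrays, and the difference was -0.40 ± 0.19 SE. The other TMCO1 probe sets gave -0.50 (208715_at), -0.29 (210768_x_at) and 0.11 (211098_x_at), the last with -0.21 when large array 4 was left out and -0.01 on the deposited scaling. The GEL partner RAB5IF had no probe set of its own and was not analysed here.

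Within the BOS complex, the probe sets that NOMO1, NOMO2 and NOMO3 share lay lower in small cells, while those of its other subunits TMEM147 and NCLN overlapped. NOMO proteins are large lumenal proteins anchored in the membrane, encoded by near-identical gene copies that these probe sets cannot separate. The shared probe set 217225_x_at was at 10.13, 10.63, 10.46 and 10.43 on large arrays 1 to 4 and at 9.17, 9.35, 9.79 and 9.96 on small arrays 1 to 4. No small array reached the lowest large array, which was large array 1, and the difference was -0.85 ± 0.18 SE, or 1.8-fold lower in small cells. The shared probe set 221853_s_at was at 8.71, 9.33, 9.15 and 9.05 on large arrays 1 to 4 and at 7.88, 8.18, 8.38 and 8.54 on small arrays 1 to 4. It showed the same separation, with a difference of -0.82 ± 0.18 SE and small array 1 the lowest on both probe sets. A dim probe set annotated to NOMO3 alone, 242922_at, was at 5.40, 5.68, 5.63 and 6.01 on large arrays 1 to 4 and at 3.89, 4.60, 5.20 and 4.40 on small arrays 1 to 4, a difference of -1.16 ± 0.30 SE that did not pass (limma adjusted p = 0.0753), although its groups did not overlap. Of the 8 fits with 1 array left out, it passed only in the fit without small array 3 (limma adjusted p = 0.0423).

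TMEM147, a multi-spanning BOS subunit with 1 probe set, was at 9.03, 9.83, 9.28 and 9.43 on large arrays 1 to 4 and at 9.41, 9.09, 9.14 and 9.39 on small arrays 1 to 4. The small arrays lay within the range of the large arrays, and the difference of -0.14 ± 0.17 SE was smaller than its error. It ran from -0.26 to 0.01 with 1 array left out. Nicalin, NCLN, had 1 tested probe set, 222206_s_at, at 4.97, 4.78, 5.44 and 5.58 on large arrays 1 to 4 and at 4.89, 5.05, 5.88 and 5.12 on small arrays 1 to 4. Here the groups overlapped, with a difference of 0.04 ± 0.29 SE that ran from -0.17 to 0.17 with 1 array left out and was -0.11 on the deposited scaling. The other NCLN probe sets, 215857_at and 215859_at, were too dim to be tested and ran from 1.17 to 4.43.

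**Figure D2:**
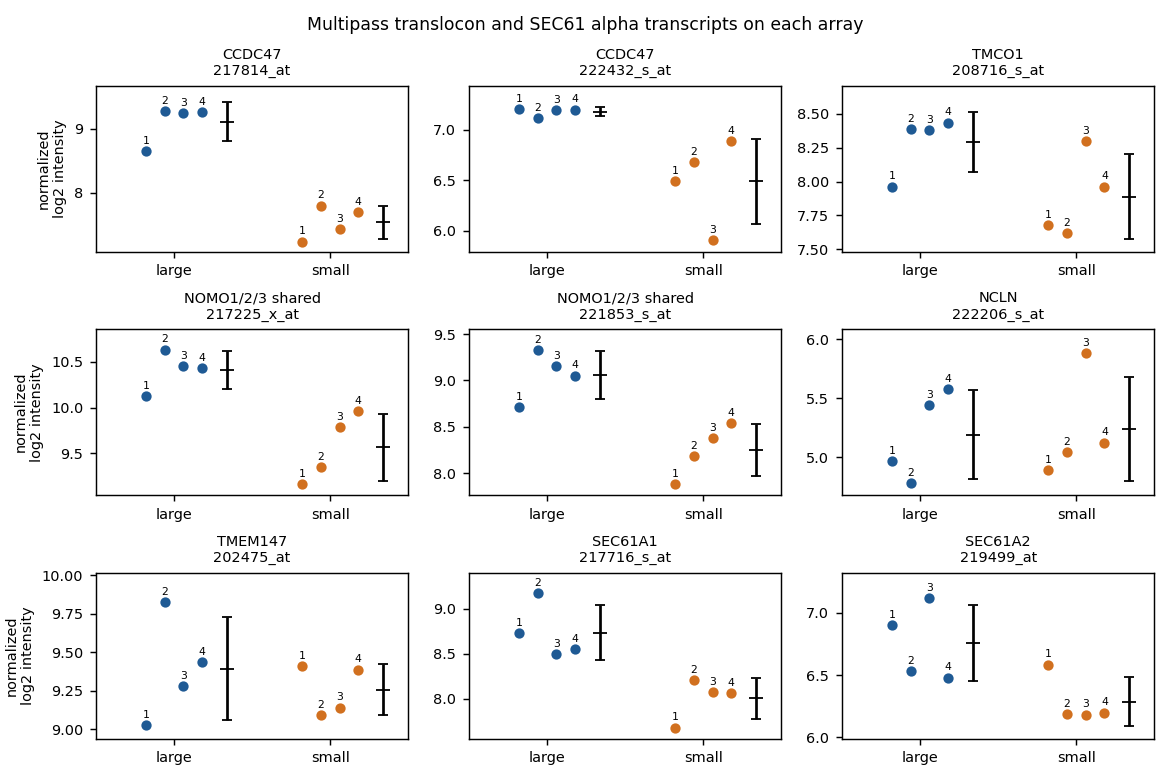
Normalized log2 intensity of 9 probe sets of CCDC47, TMCO1, NOMO, NCLN, TMEM147, SEC61A1 and SEC61A2 on each array, with the replicate number above each point and the mean ± SD (n = 4) beside each group. The groups are apart for CCDC47, NOMO and SEC61A1 and overlap for TMCO1, NCLN, TMEM147 and SEC61A2.

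The 2 channel paralogs were both lower in small cells by their means. SEC61A1 was measured best by 217716_s_at, at 8.73, 9.17, 8.49 and 8.55 on large arrays 1 to 4 and at 7.68, 8.21, 8.07 and 8.06 on small arrays 1 to 4. All small arrays lay below all large arrays, and the difference was -0.73 ± 0.18 SE, or 1.66-fold lower, a value that was not among the calls over all probe sets. The dim SEC61A1 probe set 222385_x_at had a difference of -0.10 ± 0.47 SE and ran from -0.32 to 0.18 with 1 array left out. SEC61A2 was at 6.90, 6.53, 7.12 and 6.48 on large arrays 1 to 4 and at 6.58, 6.19, 6.18 and 6.20 on small arrays 1 to 4 on 219499_at, where small array 1 was level with the lowest large arrays. Its difference was -0.47 ± 0.21 SE, and the probe sets 228747_at and 230215_at gave -0.43 ± 0.23 SE and -0.89 ± 0.53 SE. The last rests on small array 2, since the difference was -0.26 without it.

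SEC63, the membrane-bound J-domain protein that brings HSPA5 to the channel, was lower on its brighter probe sets. The probe set 201916_s_at was at 8.26, 8.51, 8.98 and 9.10 on large arrays 1 to 4 and at 7.49, 7.77, 7.87 and 7.89 on small arrays 1 to 4. No values overlapped, and the difference was -0.96 ± 0.20 SE, or 1.94-fold lower in small cells. The probe set 201914_s_at was at 8.91, 9.12, 8.73 and 9.17 on large arrays 1 to 4 and at 7.78, 8.28, 8.20 and 8.54 on small arrays 1 to 4. It gave -0.78 ± 0.18 SE, with small array 4 the closest to the large arrays. The dimmer 201915_at and 229969_at overlapped, with -0.39 ± 0.22 SE and -0.11 ± 0.29 SE, and the latter changed sign without small array 2 (0.12) and without large array 1 (0.03). The remaining SEC63 probe set, 235395_at, was not tested and ran from 2.61 to 3.72.

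SEC62, the partner of SEC63, gave opposite readings on different probe sets. The brightest, 208942_s_at, was at 7.64, 8.34, 8.46 and 8.89 on large arrays 1 to 4 and at 9.29, 9.24, 9.67 and 9.25 on small arrays 1 to 4. All small arrays lay above all large arrays, large array 1 was far below the other large arrays, and the level was 2.04-fold higher in small cells (log2 difference 1.03 ± 0.22 SE). In the deposited intensities the groups overlapped on this probe set, with small array 2 at 443 and large array 3 at 594 units. The probe set 208943_s_at was at 8.84, 8.64, 8.72 and 8.76 on large arrays 1 to 4 and at 8.14, 8.17, 8.04 and 8.40 on small arrays 1 to 4. Here the groups were also apart but in the other order, with a difference of -0.55 ± 0.14 SE. On 225352_at, SEC62 was at 7.12, 6.81, 6.91 and 6.81 on large arrays 1 to 4 and at 6.49, 6.33, 6.68 and 6.39 on small arrays 1 to 4. Again the small arrays lay below the large, by -0.44 ± 0.18 SE. The dimmest tested probe set, 1552790_a_at, overlapped at -0.18 ± 0.20 SE, and 1552789_at was not tested.

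A difference between 2 probe sets on the same array does not depend on how the array was scaled by a constant. For SEC62, 208942_s_at minus 208943_s_at was -1.20, -0.30, -0.26 and 0.13 on large arrays 1 to 4 and 1.15, 1.06, 1.63 and 0.85 on small arrays 1 to 4. The 2 probe sets annotated to the gene thus moved apart by 1.58 between large and small cells, with no overlap. On the deposited scaling the same figure was 1.60. Neither direction of SEC62 can be taken as that of the gene from these probe sets. Without large array 1, 208942_s_at had a difference of 0.80, and without large array 1 and small array 3 it was 0.70.

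**Figure D3:**
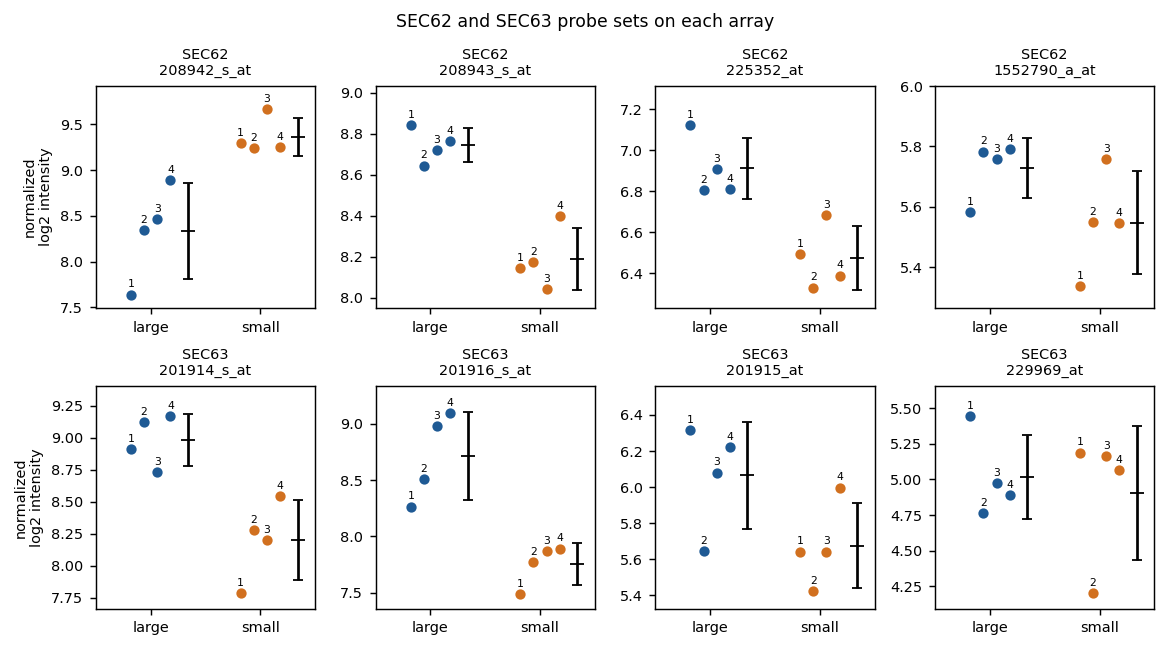
Normalized log2 intensity of the 4 tested SEC62 and 4 tested SEC63 probe sets on each array, with replicate numbers above the points and the mean ± SD (n = 4) beside each group. SEC62 208942_s_at is higher on all small arrays, while SEC62 208943_s_at and 225352_at and SEC63 201914_s_at and 201916_s_at are lower on all of them.

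The members also varied within groups. After each group's mean was taken off, the 2 CCDC47 probe sets had r = 0.31 over the 8 arrays, and the 2 shared NOMO probe sets had r = 0.55 and 0.74 with CCDC47 217814_at. For SEC63 201914_s_at and 201916_s_at r with the same CCDC47 probe set was 0.56 and 0.70, for SEC61A1 217716_s_at 0.36, for TMEM147 0.40 and for NCLN 222206_s_at 0.13. For SEC62 it was 0.54 on 208942_s_at and -0.82 on 225352_at. Over all 32768 probe sets the middle 90% of such r ran from -0.70 to 0.74, so the members lie within the common range or at its edge, SEC62 225352_at and SEC63 229969_at (-0.80) excepted. The genes most like CCDC47 within groups were GPX3, a glutathione peroxidase (0.99), the endoplasmic reticulum disulfide isomerase PDIA6 (0.99), CD47, a surface protein (0.99), the transcription factor KLF12 (0.99) and the small GTPase RAB26 (0.98). Of these, PDIA6 was also called lower in small cells (-0.99, limma adjusted p = 0.00916, n = 4 per group). These r rest on 8 arrays that differ in brightness and RNA quality, whose part in them was not tested, and are a description.

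Other genes of insertion into the endoplasmic reticulum were taken from 7 lists of 56 genes, of which 52 were tested, each by its brightest probe set. Of these, 4 were called lower by limma, or 7.69% (background 1.43% of 14726 genes), and 0 higher (background 0.204%). At an unadjusted limma p under 0.05, 18 were lower and 5 higher, beside 2390 of all 14726 genes in either direction. The median difference was -0.13, beside 0.05 over all genes. The lists were chosen with earlier results of these data known. Nothing is therefore read from the counts and medians of any of the 7 lists. In the SEC61 channel and accessory list, HSPA5, the lumenal chaperone that pulls chains through the channel, was 1 of 11 called. It was at 10.92, 10.93, 10.36 and 10.28 on large arrays 1 to 4 and at 9.38, 10.03, 9.10 and 9.73 on small arrays 1 to 4. The groups did not overlap, and the difference was -1.06 ± 0.21 SE (limma adjusted p = 0.0285). The other channel subunit tested, SEC61B, had a difference of 0.02 ± 0.12 SE.

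The oligosaccharyltransferase, which adds N-glycans to chains as they emerge from SEC61, had 3 of 10 genes called lower, a list median of -0.53 and 9 of 10 genes below 0. Its subunit RPN2 was at 11.59, 11.73, 11.03 and 11.45 on large arrays 1 to 4 and at 10.45, 10.28, 10.46 and 10.77 on small arrays 1 to 4. All small arrays were below all large arrays, with a difference of -0.96 ± 0.16 SE (limma adjusted p = 0.013). The subunits MAGT1 (-0.93 ± 0.16 SE, adjusted p = 0.0185), an oxidoreductase, and STT3B (-0.67 ± 0.14 SE, adjusted p = 0.0372), a catalytic subunit, were also lower on every small array.

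The remaining lists held no called gene in limma. Their counts at an unadjusted p under 0.05 stand beside 2390 of all 14726 genes. In the ER membrane protein complex, an insertase for tail segments and first membrane segments, 0 of 10 were called and 4 had an unadjusted p under 0.05, with a median of -0.13. Its lowest p was that of EMC7 (-0.60 ± 0.19 SE, adjusted p = 0.147). Of 8 genes of the signal recognition particle, which brings ribosomes to the membrane, and its receptor, 0 were called and 4 had an unadjusted p under 0.05. The receptor subunit SRPRB lay just beyond the threshold (-0.72 ± 0.17 SE, adjusted p = 0.0515). Of 5 signal peptidase genes, 0 were called and 2 had an unadjusted p under 0.05, with SPCS2 at -0.49 ± 0.15 SE (adjusted p = 0.123). For tail-anchor insertion the counts were 0 of 6 and 2, with GET1 at -0.34 ± 0.14 SE (adjusted p = 0.281). For the 2 tested multipass partners, WDR83OS and NOMO3, they were 0 and 1. The count of 4 called genes was 7 without large array 1, 2 without large array 2, 1 without large array 3 or small array 2, and 0 without large array 4 or small array 1 (limma, 18 and 19 at an unadjusted p under 0.05).

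**Figure D4:**
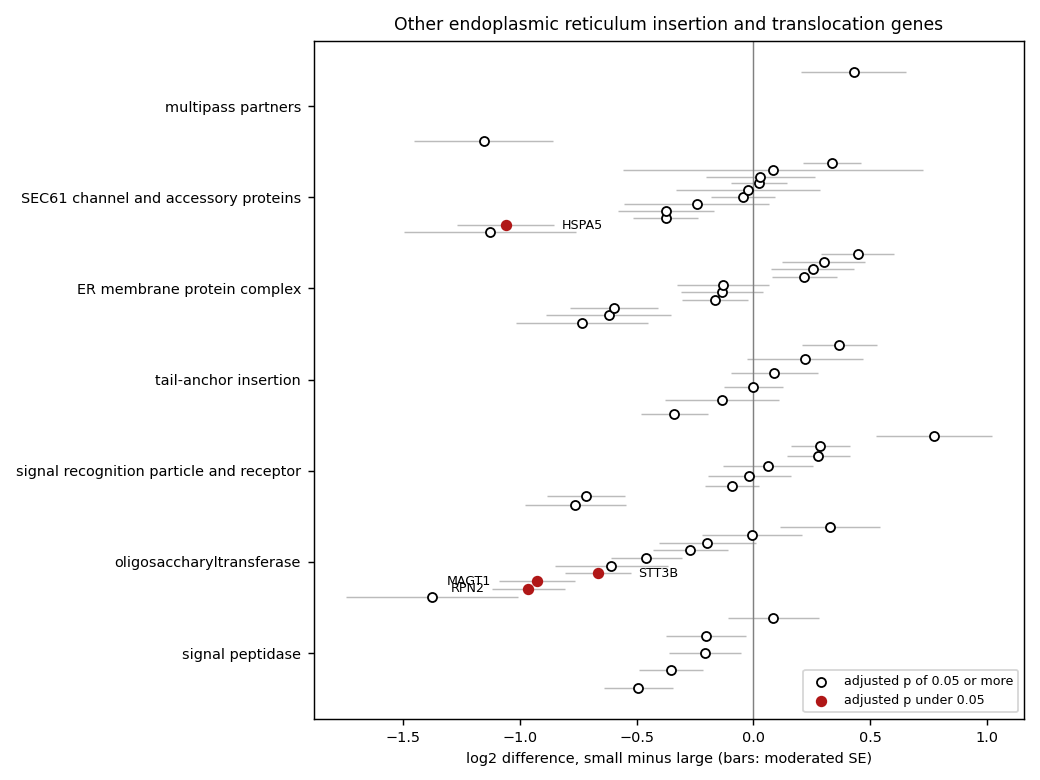
Log2 difference, small minus large, of 52 tested genes of 7 insertion and translocation lists, with moderated standard errors (4 arrays per group); filled points had an adjusted p under 0.05. HSPA5 at -1.06 and RPN2, MAGT1 and STT3B at -0.96, -0.93 and -0.67 are the filled points, all left of 0.

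The following probe sets far from 0 kept their direction with each array left out. Since their groups did not overlap, losing 1 array could hardly change the sign, so this is no test of them. CCDC47 217814_at ran from -1.73 to -1.46 with 1 array left out, SEC63 201916_s_at from -1.11 to -0.83, the shared NOMO probe set 217225_x_at from -0.97 to -0.71, SEC61A1 217716_s_at from -0.81 to -0.58 and SEC62 208942_s_at from 0.80 to 1.22. TMEM147 and NCLN crossed 0.

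**Figure D5:**
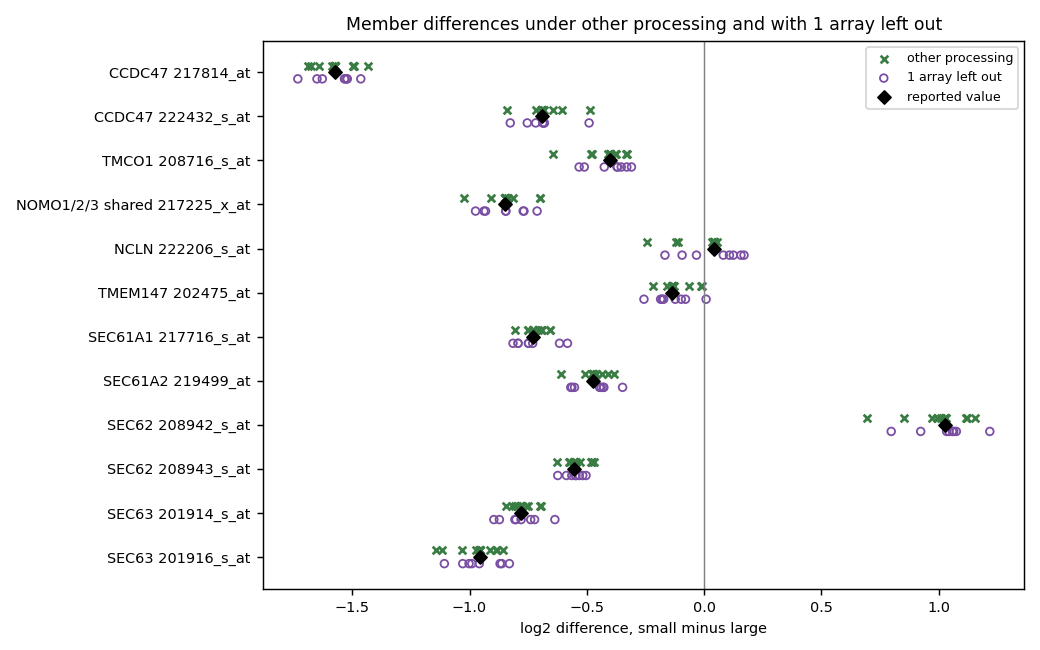
Log2 difference, small minus large, of 12 member probe sets as reported (diamonds), with 1 array left out (circles) and under other processing (crosses). All values of CCDC47, SEC63, NOMO, SEC61A1 and TMCO1 208716_s_at stay below 0, while TMEM147 and NCLN reach it. For SEC62, all values of 208942_s_at stay above 0 and all values of 208943_s_at stay below it.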

How the data were processed

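The authors deposited 1 linear intensity per probe set and array. Per the series design text, arrays were scanned, processed by GeneChip Operating Software and passed to Rosetta Resolver; the background correction and scaling of the deposited intensity values are not given in the sources used here. Groups and replicate numbers came from the sample titles. Intensities were put on the log2 scale after adding 1.81, the 10th percentile of all values, which understates differences of dim probe sets. Quantile normalization was used because the log2 75th percentiles spanned 1.33. After removal of 62 controls, the 32768 probe sets whose mean lay above the 40th percentile (3.62) entered limma 3.58.1 in R 4.3.3 (lmFit and trended eBayes). Tests were two-sided, p-values were adjusted by Benjamini-Hochberg over all these probe sets, and the threshold was 0.05. Symbols came from the platform annotation, updated by gene ID; those with several symbols were not used, except the shared NOMO probe sets. A gene of a list was represented by its tested probe set with the highest mean (14726 genes). The fit and the calling were tested on simulated data with independent noise, without the normalization and filter steps.

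The members and lists were chosen with earlier results of these data known, and no p-value is given for members because the same comparison took part in choosing them. From each list the text names up to 3 called genes with the largest difference, or the gene with the lowest p. It also names the 5 genes most like CCDC47 217814_at, and it names WDR83OS and SEC61B as direct partners, chosen after their values were seen. Alternatives were 3 other scalings or centrings, cyclic loess, 2 pseudocounts, 2 filters, a replicate block, no variance trend, array weights, no _x_at and _s_at probe sets, each array left out, and, added after the data were seen, a 3 prime minus 5 prime covariate and the loss of large array 1 with small array 3. The suffixes _x_at and _s_at mark probe sets that may detect more than 1 transcript. The number of arrays limits the precision.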

Additional observations from a re-analysis of the deposited data

Results flagged for a closer look

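In groups of 4 arrays, 1 array stood apart from the other 3 in 9 of 64 groups tested by Dixon's criterion (gap over range above 0.829), where chance flags about 1 group in 20. Large array 1 was low for CCDC47 217814_at (8.65, others 9.25 to 9.28), TMCO1 208716_s_at (7.96, others 8.38 to 8.43) and SEC62 1552790_a_at (5.58, others 5.76 to 5.79). Its 3 prime minus 5 prime difference, 2.91, was the highest of the 8 arrays. Large array 2 was low for CCDC47 222432_s_at (7.12, others 7.19 to 7.21). Small array 1 was high for SEC61A2 219499_at (6.58, others 6.18 to 6.20). Small array 2 was low for SEC61A2 230215_at (2.01, others 4.30 to 4.69) and for SEC63 229969_at (4.21, others 5.07 to 5.19). Small array 3 was high for SEC62 208942_s_at (9.67, others 9.24 to 9.29) and for the signal recognition particle receptor subunit SRPRB (8.01, others 7.55 to 7.62).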

How the results depend on the processing

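Counts of calls depended on the processing, and the cause was not tested. Over all probe sets 491 were called, 426 lower and 65 higher, and limma called 3 (2 lower and 1 higher) on each of the deposited scaling, median centring and a fit with no variance trend, 1205 with a replicate block, 1131 with array weights, 290 without _x_at and _s_at probe sets (fewer were tested), 296 with the 3 prime minus 5 prime covariate, 1148 without large array 1 and small array 3, and from 49 to 788 with 1 array left out. With 75th percentile scaling 314 were lower and 104 higher. Of the members 4 were called, 0 in the same 3 settings (1, 6 and 9 at an unadjusted p under 0.05), 2 with 75th percentile scaling or the covariate, 1 without _x_at and _s_at probe sets and from 1 to 3 with 1 array left out. Of the list genes 4 were called, 0 in these 3 settings (7, 12 and 15 at an unadjusted p under 0.05), 2 with 75th percentile scaling, without _x_at and _s_at probe sets or with the covariate, 10 with the replicate block, 11 with array weights, 10 without large array 1 and small array 3, and from 0 to 7 with 1 array left out. The main fit took the arrays as unpaired, and whether a shared replicate number marks a pair was not tested. Deviations of arrays with the same number correlated at 0.10, 0.10, 0.21 and 0.02, and 6 of 8 arrays were most like their own number. If the numbers do mark pairs, the unpaired errors and calls leave that pairing out. The replicate block moved the member count to 6.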

Other observations

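Some list genes outside the naming rule, picked after their values were seen, had large differences that did not pass. STT3A, the other catalytic subunit of the oligosaccharyltransferase, was at 6.38, 7.95, 8.01 and 8.47 on large arrays 1 to 4 and at 6.06, 6.37, 6.87 and 6.01 on small arrays 1 to 4, a difference of -1.38 ± 0.37 SE (limma adjusted p = 0.0873). Large array 1 lay among the small arrays here. HYOU1, an exchange factor for HSPA5, was at 7.05, 8.86, 8.26 and 8.28 on large arrays 1 to 4 and at 6.46, 6.40, 7.35 and 7.74 on small arrays 1 to 4, with -1.13 ± 0.37 SE (adjusted p = 0.157), and large array 1 was again the lowest of its group. On its brightest probe set, 208095_s_at, SRP72, a protein of the signal recognition particle, had a difference of the other sign, at 11.07, 10.09, 9.54 and 10.20 on large arrays 1 to 4 and at 11.34, 11.06, 10.83 and 10.76 on small arrays 1 to 4, with 0.77 ± 0.25 SE (adjusted p = 0.152). Large array 1 lay within the range of the small arrays here too. The probe sets of SRP72 disagreed: the next brightest, with a mean of 10.48 beside 10.61, gave -0.10 ± 0.11 SE, and the other 3 tested gave 0.04 ± 0.16, 0.24 ± 0.16 and 0.73 ± 0.21 SE, so no direction is given for the gene.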
